A study of Caenorhabditis elegans with 28 samples.

Results

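LAG-1 binding regions that also carried a peak in a tag control were examined in Caenorhabditis elegans L4 larvae. They were chosen from the authors' peak lists: the peaks of all 14 immunoprecipitation lists were merged wherever they overlapped by at least 1 bp, and autosomal regions that had a peak in 2 or more of the 4 LAG-1 libraries and also in 1 or more of the 6 control libraries were kept. This gave 234 members out of 24961 merged regions, of which 20839 were autosomal. The 1036 autosomal regions with a peak in 2 or more LAG-1 libraries are called recurrent LAG-1 regions here, and the 802 of them with no control peak serve as the comparison. Members made up 22.6% of the recurrent LAG-1 regions (exact 95% binomial interval 20.1 to 25.3), a share that the selection itself defines and that was 12.3% without the control library Myc a. The intervals given here cover counting error only, treat regions or peaks as independent and test nothing. LAG-1 and control peaks chose the members, so their values are descriptions, and a test was run only on the Notch libraries, whose peaks were not required. Notch peaks took part in the merging, and without them 232 members were formed.

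GLP-1 is a Notch receptor that keeps germline stem cells in the mitotic state in this animal. After signalling, its intracellular domain moves to the nucleus and forms an activating complex with the CSL-family factor LAG-1, which is the member of the complex that contacts DNA. In chromatin immunoprecipitation, an antibody against a tag collects DNA bound by the tagged protein. A control with a tagged protein that has no binding sites of its own, such as GFP, records the DNA that is collected without the protein of interest.

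All libraries came from whole L4 larvae grown at 20 °C, with 10 µg of antibody and extract at 4 mg/mL, per the labels. LAG-1 tagged at its N terminus (strain pJK1689) gave libraries a, b, c and e, and GLP-1 tagged at its C terminus (strain pJK1662) gave Notch libraries a, b, c and d. Control animals with Flag- and Myc-tagged GFP (strain pJK1728) gave Flag libraries a, b and c and Myc libraries a, c and d. The design text calls the replicates biological. The promoter that drives each tagged protein, whether the untagged protein was also present and how the strains were made are not given in the labels. The antibody given for a sample does not always match its title: a Flag antibody is listed for the libraries titled Myc, and a Myc antibody for both LAG-1 and Notch libraries. All 6 controls were therefore used together, and each kind is also described alone. Germline and somatic chromatin are mixed in whole animals and cannot be told apart.

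Library depth ran from 3.13 to 19.8 M tags, and the lists held 44 to 8261 peaks. Controls were not alike: Myc a held 8078 peaks and Myc c 5824, while the other 4 control lists held 45 to 127. Control lists were called at a false discovery rate of 0.001 and LAG-1 and Notch lists at 0.01, per the file headers. Absence of a control peak is therefore no measure of absent control signal. Genes, motifs and sequences are not given, because the gene table used here is of another assembly. Positions are ce10 coordinates, named by chromosome, first base and last base.

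Myc a and Myc c supplied most of the control peaks that define the members. Myc a had a peak in 144 members and Myc c in 108. Flag b followed with 15, Flag a with 8, Myc d with 4 and Flag c with 1. A single control library supported 193 members (82.5%), 2 libraries supported 36 and 3 libraries supported 5. In 183 members (78.2%) the only control peak was that of Myc a (107 members) or that of Myc c (76 members). Both of these and no other control had a peak in 23 members. A Flag peak was present in 24 members (10.3%), and in 16 of these a Myc peak was present too. Only 10 members lacked a peak in both Myc a and Myc c. Most members thus rest on the 2 controls with the longest lists. Without Myc a 127 members were left, without Myc c 157, and without Myc a, Myc c and Notch c, the 3 libraries of over 5000 peaks, 28. Without LAG-1 b the number was 144 and without LAG-1 e 137.

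The share of a control list that lay in members differed widely between controls. Of the 39 autosomal regions of Flag b, 15 (38.5%) were members, the highest share of any control. For Flag a the share was 7.21%, for Myc d 3.81%, for Myc c 2.23%, for Myc a 2.14% and for Flag c 1.43%. Among LAG-1 libraries, members held 27.2% of the autosomal regions of LAG-1 a, 16.4% of those of LAG-1 b, 13.4% of those of LAG-1 e and 11.8% of those of LAG-1 c. The long Myc lists therefore lay mostly elsewhere, with 6734 autosomal regions in Myc a and 4842 in Myc c.

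**Figure D1:**
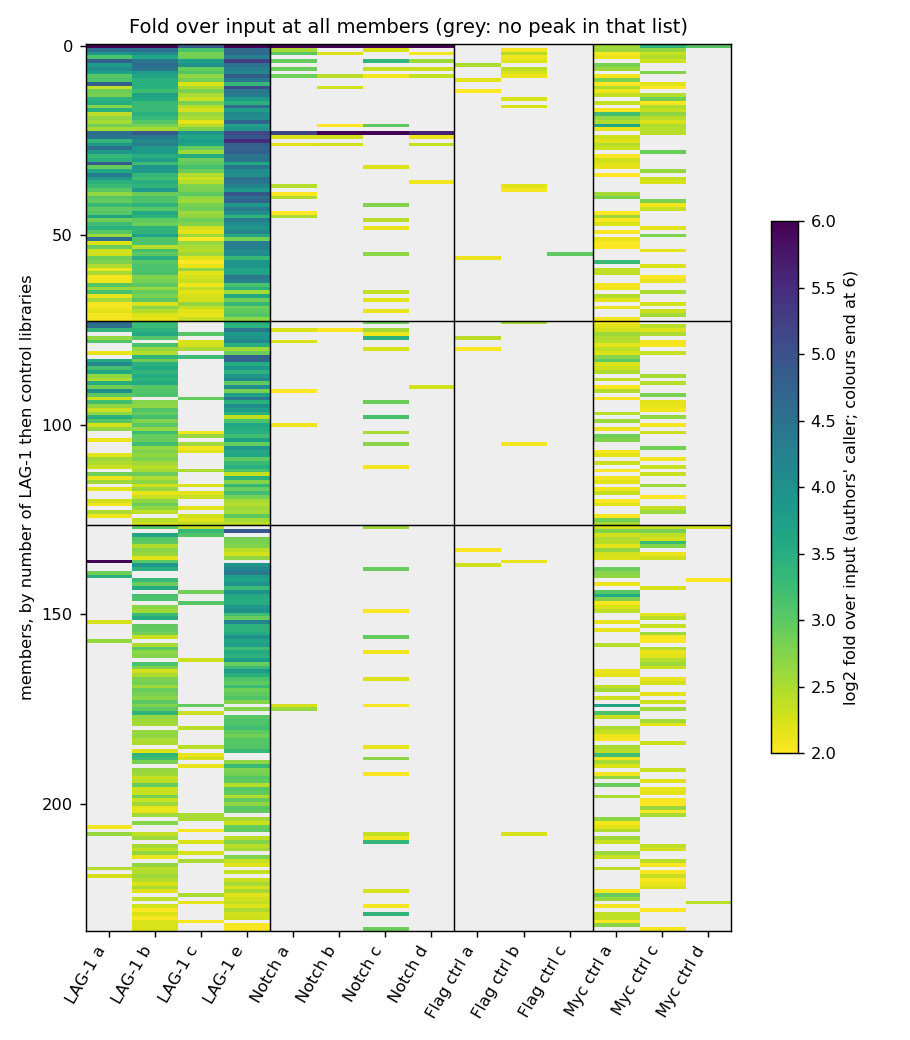
Fold over input, on a log2 scale, of the authors' peaks at all 234 members (rows) in the 14 immunoprecipitation libraries (columns). Rows are sorted by the number of LAG-1 libraries and then of control libraries, with lines below the 73 members of 4 and the 54 members of 3 LAG-1 libraries; grey marks a library with no peak, and colours end at 6. Control peaks fall mainly in the Myc a and Myc c columns, and Notch peaks lie mostly in the upper rows and in Notch c.

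Members lay in more LAG-1 libraries than recurrent regions without a control peak. Of the members, 107 (45.7%) had peaks in 2 LAG-1 libraries, 54 (23.1%) in 3 and 73 (31.2%) in all 4. For regions without a control peak the numbers were 470 (58.6%), 221 (27.6%) and 111 (13.8%). Read the other way, a control peak was present in 107 of 577 regions of 2 LAG-1 libraries (18.5%), in 54 of 275 regions of 3 (19.6%) and in 73 of 184 regions of all 4 (39.7%). Among 1639 autosomal regions with a peak in a single LAG-1 library, which fall outside the selection, 186 (11.3%) had one. LAG-1 e had a peak in 221 members, LAG-1 b in 213, LAG-1 a in 120 and LAG-1 c in 114. The pair LAG-1 b and e made up 76 of the 107 members of 2 libraries (71.0%) and 353 of the 470 such regions without a control peak (75.1%), so the same pair of libraries dominated both sets.

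LAG-1 peaks at members had a higher fold over input in each of the 4 libraries. In LAG-1 a the median fold was 7.40 at members and 6.42 at recurrent regions without a control peak. The medians were 7.64 and 6.40 in LAG-1 b, 5.69 and 5.13 in LAG-1 c, and 10.7 and 7.99 in LAG-1 e. The authors scaled LAG-1 a and b to the input and the other libraries the other way round, so these folds are compared within a library. Placed as a percentile of its own list, the median LAG-1 peak in members was higher by 12.5, 16.5, 13.6 and 18.5 points in LAG-1 a, b, c and e. The mean of these, 15.3 points, was 7.60 at a fold of at least 6 and 29.6 with Flag peaks as the only control peaks. The input tags under these peaks, which were scaled in LAG-1 c and e only, differed little. Medians at members and at regions without a control peak were 34 and 31 in LAG-1 a and 57 and 57 in LAG-1 b. They were 36.5 and 35.4 in LAG-1 c, and 32.2 and 31.8 in LAG-1 e. The normalised tags in the peak were higher at members in each library, for example 359.8 against 273.3 per 10 M tags in LAG-1 e. Over all LAG-1 libraries with a peak, the mean fold per region had a median of 8.28 at members (4.37 to 87.7) and 6.77 at regions without a control peak (4.07 to 51.4). The ranges overlapped from 4.37 to 51.4, and the 87.7 came from 1 high LAG-1 a value. This mean mixes libraries of unlike scaling, and the mix differed. LAG-1 a had a peak in 51.3% of members and 38.0% of regions without a control peak, and LAG-1 c in 48.7% and 32.9%. The shares were 91.0% and 90.9% in LAG-1 b, and 94.4% and 93.4% in LAG-1 e.

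**Figure D2:**
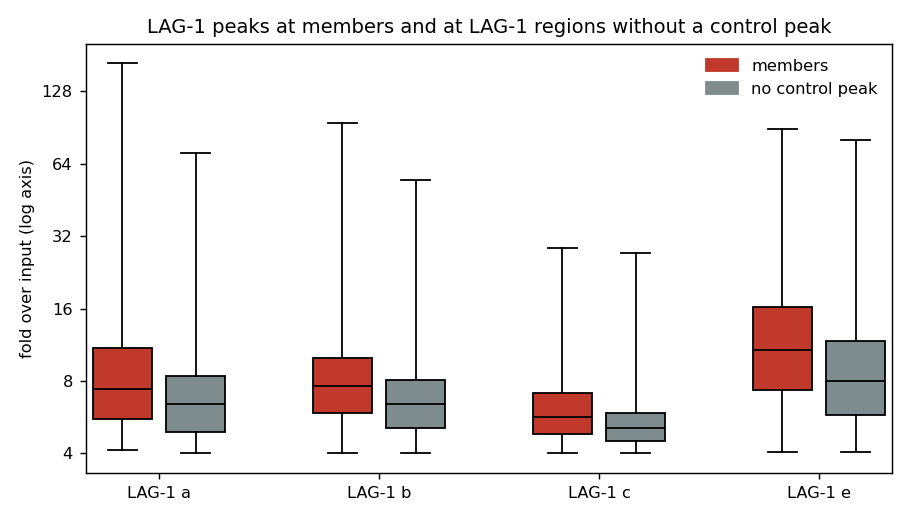
Fold over input (log axis) of LAG-1 peaks in members and in recurrent autosomal LAG-1 regions without a control peak, for each LAG-1 library. Boxes span the middle 50% of peaks with the median as a line, and whiskers reach the lowest and highest peak; the median is higher for members in each library, from 5.69 against 5.13 in LAG-1 c to 10.7 against 7.99 in LAG-1 e.

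The members of all 4 LAG-1 libraries showed 1 order of libraries. Median folds at these 73 members were 17.9 in LAG-1 e, 9.96 in LAG-1 b, 8.22 in LAG-1 a and 6.09 in LAG-1 c. LAG-1 e was highest in 59 of them, and LAG-1 c was lowest in 52, LAG-1 a in 19 and LAG-1 b in 2. The 111 regions of 4 libraries without a control peak had the same order, with LAG-1 e highest in 85 and LAG-1 c lowest in 66.

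The share of LAG-1 peaks overlapped by a control peak was also taken over each whole autosomal LAG-1 list, without the requirement of a second LAG-1 library. Each list was split by fold into 5 classes of equal size. In LAG-1 a, a control peak overlapped 18.2% of peaks in the lowest class (95% interval 10.8 to 27.8) and 40.4% in the highest (30.2 to 51.4). The lowest and highest classes stood at 12.7% (8.94 to 17.4) and 31.2% (25.6 to 37.2) in LAG-1 b, at 12.4% (8.13 to 17.9) and 28.4% (22.1 to 35.2) in LAG-1 c, and at 7.27% (4.72 to 10.6) and 28.5% (23.7 to 33.7) in LAG-1 e. The highest class had the largest share in each of the 4 libraries, and the lowest class had the smallest in LAG-1 a, b and e. The classes between did not climb evenly: in LAG-1 c class 3 stood at 11.3%, below the lowest, and in LAG-1 b class 4 stood at 17.4%, below the 18.1% of class 3.

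The same pattern was present with Myc a and Myc c set aside. The other 4 controls overlapped 1.14% of the lowest and 13.5% of the highest class of LAG-1 a. The shares were 0.386% and 8.08% in LAG-1 b, 0.518% and 10.3% in LAG-1 c, and 0 of 330 peaks (exact upper limit 1.11%) and 6.06% in LAG-1 e. The highest class held 12 of 24 such peaks in LAG-1 a, 21 of 29 in LAG-1 b, 20 of 28 in LAG-1 c and 20 of 28 in LAG-1 e. LAG-1 libraries share the controls, so the 4 curves are not independent of each other.

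**Figure D3:**
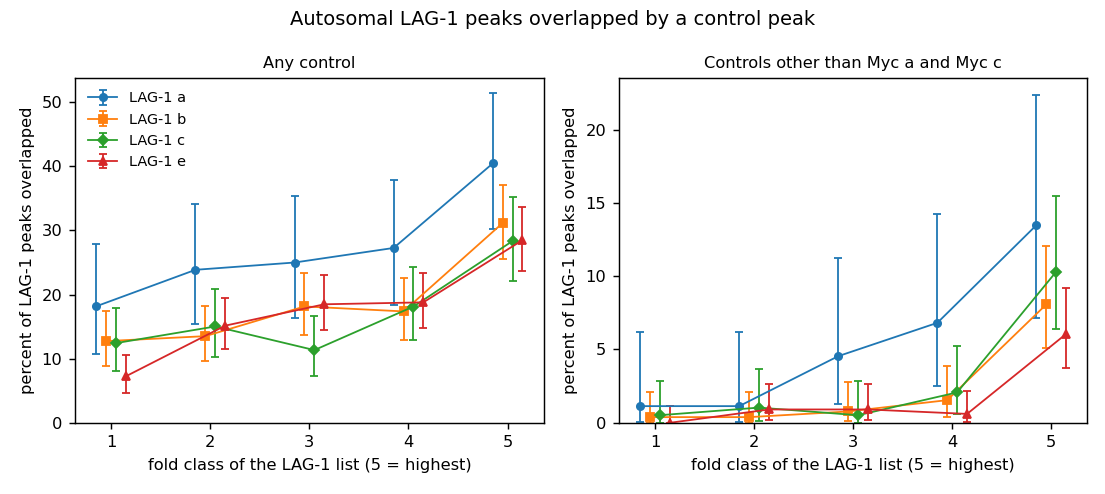
Percent of autosomal LAG-1 peaks overlapped by a control peak, by fold class of each LAG-1 list (5 classes of equal size, 1 lowest and 5 highest fold over input), for any control on the left and for the 4 controls other than Myc a and Myc c on the right. Bars are exact 95% binomial intervals; the highest class holds 28.4% to 40.4% on the left and 6.06% to 13.5% on the right, above the lowest class in each library.

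Control peaks in members lay near the median fold of their own lists in the 4 controls with 8 or more of them. Myc a peaks in members had a median fold of 5.03, against 4.96 for its other autosomal peaks, and Myc c peaks 4.995 against 5.21. Flag b gave 4.56 and 4.75, Flag a 4.44 and 4.70, and the fold was somewhat lower in members in both. Myc d, with 4 peaks in members, gave 5.05 and 4.39, and Flag c, with 1, gave 7.88 and 4.37. The peaks in members rested on few tags: 56 to 252 in Myc a (median 98), 23 to 82 in Myc c (median 36) and 75 to 188 in Flag b (median 102). Median scaled input tags were 19.5 in members and 15.9 elsewhere in Myc a, and 7.3 and 6.3 in Myc c. They were 21.6 and 18 in Myc d, 38.9 and 33 in Flag a, and 37.8 and 28.5 in Flag c. Input was thus higher under the peaks in members except in Flag b, with 21.5 and 22.55. By measures of shape the peaks in members stood lower than the other autosomal peaks of their lists in all 6 controls. The clonal fold, a ratio that is high where tags pile up on few positions, had medians of 1.21 in members and 1.39 elsewhere in Myc a, 1.26 and 1.34 in Myc c, 1.10 and 1.38 in Flag a, and 0.97 and 1.26 in Flag b. For Flag c, with 1 peak in members, the values were 1.13 and 1.29, and for Myc d 1.11 and 1.18. The strand-focus fraction given by the caller is high where tags of either strand flank the peak centre in the arrangement of a single binding site. It was 0.783 and 0.838 in Myc a, 0.807 and 0.829 in Myc c, 0.706 and 0.791 in Flag a, 0.767 and 0.856 in Flag b, 0.592 and 0.761 in Flag c, and 0.678 and 0.775 in Myc d.

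LAG-1 peaks were compared with those of recurrent regions without a control peak by the same measures. The clonal fold was lower at members in all 4 libraries, with differences of -0.03 in LAG-1 a, -0.02 in LAG-1 b, -0.025 in LAG-1 c and -0.02 in LAG-1 e. The strand-focus fraction differed by 0.003 in LAG-1 a, -0.008 in LAG-1 b, -0.011 in LAG-1 c and -0.023 in LAG-1 e, lower at members in 3 of 4. Its mean over the libraries, -0.00975, turned to 0.0474 when only Flag peaks counted as control peaks. The control lists above were set against all their other autosomal peaks, which is a wider comparison. Against the autosomal peaks in neither set, the median clonal fold in members was 0.85 and 0.995 outside in LAG-1 a (16 peaks outside), 0.81 and 0.86 in LAG-1 b, 1.005 and 1.37 in LAG-1 c, and 0.85 and 0.89 in LAG-1 e. The LAG-1 peaks in members thus also had the lower clonal fold in each library, by most in LAG-1 c. The median strand-focus fraction in members and outside was 0.745 and 0.652 in LAG-1 a, and 0.738 and 0.7325 in LAG-1 b. It was 0.758 and 0.771 in LAG-1 c, and 0.744 and 0.733 in LAG-1 e. The fraction was thus higher in members except in LAG-1 c, whereas in every control it was lower in members.

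LAG-1 and control folds at the same member were set side by side, although libraries were scaled in different ways. In 153 members (65.4%) the highest control fold lay below every LAG-1 fold, and in 13 (5.56%) it lay above every one. Placed as percentiles of their own lists, which differ in length, the control peak ranked below every LAG-1 peak in 113 members (48.3%) and above every one in 46 (19.7%). The relation between LAG-1 and control peak size was described for Myc a, Myc c and Flag b, with no test between them. Across 144 members, Spearman's rho between the mean LAG-1 percentile and the Myc a fold was 0.089, and Pearson's r between the mean LAG-1 fold and the Myc a fold was 0.034. They were 0.357 and 0.497 across 108 members with Myc c, and 0.018 and -0.109 across 15 members with Flag b. The Pearson value for Myc c includes I 12483530, with a mean LAG-1 fold of 70.1 and a Myc c fold of 10.47. That for Flag b includes II 856869, whose mean LAG-1 fold of 87.7 came from 1 high value. Single members of this kind can set Pearson's r, and values without them were not computed. These correlations are descriptions over regions of the same libraries, and low tag numbers limit them.

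The centres of control peaks lay, by median, farther from the LAG-1 centre than did those of LAG-1 peaks. The exception was Flag b, which lay nearer than LAG-1 c only. The LAG-1 centre of a member is the median over its LAG-1 peaks, so the LAG-1 distances are in part fixed by this definition. Median distances were 11.5 bp in LAG-1 a, 13 bp in LAG-1 b, 17 bp in LAG-1 e and 34.8 bp in LAG-1 c. Among controls the medians were 80.5 bp for Myc a, 63.8 bp for Myc c, 59 bp for Flag a and 60.5 bp for Myc d, and 71.5 bp for the single peak of Flag c, while Flag b, with 15 peaks, stood at 27.5 bp, below LAG-1 c. Notch peaks gave 35.3 bp in Notch a, 22 bp in Notch b and 44.8 bp in Notch d, and 104 bp in Notch c. The nearest control centre lay within 50 bp of the LAG-1 centre in 102 members (43.6%), within 100 bp in 161 (68.8%) and over 200 bp away in 24 (10.3%). Myc a, Myc c and Notch c, whose lists are the longest, thus had the most distant centres among libraries with at least 5 peaks in members.

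**Figure D4:**
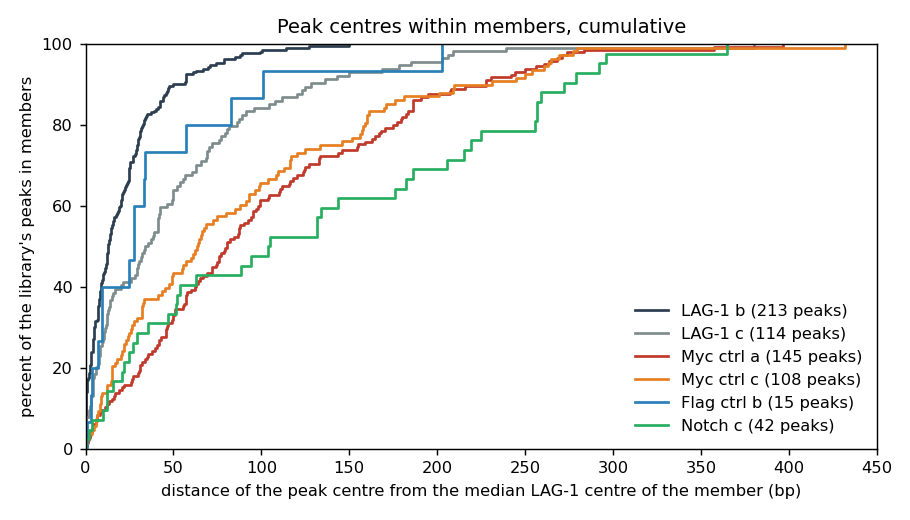
Cumulative percent of a library's peaks in members (vertical axis) by the distance in bp of the peak centre from the median LAG-1 centre of the member (horizontal axis), for 6 libraries. LAG-1 b and Flag b climb fastest, with medians of 13 and 27.5 bp, and Myc a, Myc c and Notch c climb more slowly, with medians of 80.5, 63.8 and 104 bp.

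Members of the 5 autosomes numbered 51 on I, 41 on II, 51 on III, 57 on IV and 34 on V. Per megabase up to the highest peak end, this was 3.39, 2.68, 3.70, 3.26 and 1.63, with V lowest. Regions without a control peak were also sparsest on V, at 7.5 per megabase against 9.89 to 11.0 on the others. The share of recurrent LAG-1 regions with a control peak was 26.0% on III, 24.8% on IV, 23.5% on I, 20.3% on II and 17.8% on V. With each chromosome cut into 3 equal lengths, the middle lengths held 78 members (33.3%) and 296 regions without a control peak (36.9%). Within 10 kb of another member lay 24 members (10.3%), in 12 pairs and no longer runs. Of the more numerous regions without a control peak, 143 (17.8%) lay within 10 kb of another. The closest pair, IV 4748658 to 4749215 and IV 4749874 to 4750295, was 658 bp apart, and both had peaks in all 4 LAG-1 libraries. A second pair, IV 13239365 to 13239787 and IV 13240469 to 13240831, was 681 bp apart.

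Members had a median length of 411 bp (317 to 816), against 369 bp for regions without a control peak. A member also holds the extent of its control peak, so it cannot be shorter than its LAG-1 peaks alone.

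The member with peaks in most libraries, I 12483530 to 12483989, had 11 of 14. Its fold over input was 68.1 in LAG-1 a, 94.5 in LAG-1 b, 28.5 in LAG-1 c and 89.4 in LAG-1 e. In Notch a, b, c and d the fold was 77.7, 94.95, 147.9 and 142.2. The control folds were 5.89 in Myc a, 10.47 in Myc c and 8.37 in Myc d, and the Myc c peak held 262 normalised tags. Every LAG-1 and Notch fold was above every control fold.

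At V 11770127 to 11770490 all 8 LAG-1 and Notch libraries had a peak, and 1 control. Folds were 23.1, 29.3, 14.9 and 35.5 in LAG-1 a, b, c and e. In Notch a, b, c and d they were 37.2, 63.2, 65.3 and 49.95. Myc c had a fold of 5.34. The Notch folds at this region and at I 12483530 were the highest; elsewhere among the 12 members with peaks in most libraries, Notch folds ran from 4.02 to 10.4.

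All 4 Notch libraries also had a peak at III 10758760 to 10759321. Its LAG-1 folds were 8.19, 13.0, 6.36 and 28.2 in a, b, c and e, its Notch folds 7.31, 5.36, 4.20 and 5.18 in a, b, c and d, and its control folds 4.36 in Flag b and 4.14 in Myc a. The Notch folds lay above both control folds except in Notch c, and all lay below the fold of LAG-1 a.

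Flag b peaks recurred among the members with peaks in most libraries, a ranking that itself counts Flag b. II 10563302 to 10563685 had folds of 15.1, 16.6, 7.01 and 24.8 in LAG-1 a, b, c and e and 5.38 in Flag b, 4.15 in Myc a and 5.01 in Myc c. Its Notch folds were 8.10 in Notch a, 4.62 in Notch b and 4.19 in Notch d. III 3867395 to 3867752 had LAG-1 folds of 27.4, 21.9, 13.4 and 39.4, a Flag b fold of 4.51 and a Myc c fold of 4.88, with 7.70, 10.4 and 6.06 in Notch a, c and d. IV 4749874 to 4750295 had LAG-1 folds of 23.3, 23.4, 8.80 and 24.5, and control folds of 4.09 in Flag b, 6.04 in Myc a and 6.27 in Myc c. In each of these 3 members every LAG-1 fold exceeded every control fold.

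Other members with peaks in many libraries had Myc a as a control. II 14561577 to 14561988 had LAG-1 folds of 16.8, 21.6, 7.67 and 19.3, and 5.28 in Flag b and 6.04 in Myc a. IV 654738 to 655106 had 22.0, 21.04, 12.1 and 31.3 in LAG-1 a, b, c and e and 4.90 in Myc a. III 7854454 to 7854831 had 14.4, 19.5, 12.8 and 27.2, and 5.49 in Myc a. LAG-1 e had the highest LAG-1 fold in the last 2 of these, and LAG-1 c the lowest in all 3.

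Control folds reached those of LAG-1 in some members. At I 6837955 to 6838332 the Myc a fold of 12.7 was the highest of any fold there, with 6.89 in LAG-1 b, 7.78 in LAG-1 c, 4.80 in Notch a and 4.19 in Notch c. At IV 11327016 to 11327599 Myc a stood at 12.2 and Myc c at 5.54, and LAG-1 a, b, c and e at 7.23, 7.03, 5.42 and 13.1. At IV 13855327 to 13855757 the Myc a fold was 11.74 and that of LAG-1 e 11.71, with 8.96 in LAG-1 b, but its peak had only 63.5 normalised tags over 6 scaled input tags.

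Peaks in 3 controls were found at 5 members. Besides the regions at I 12483530, II 10563302 and IV 4749874, these were I 4171976 to 4172477 and I 7871877 to 7872449. The former had LAG-1 folds of 8.78, 12.5, 7.29 and 19.1, and 4.29 in Flag b, 4.37 in Myc a and 5.5 in Myc c, with no Notch peak. The latter had folds of 8.27 in LAG-1 b and 5.08 in LAG-1 c, and 4.86, 4.97 and 4.77 in Myc a, c and d, so its weaker LAG-1 peak stood next to its control peaks.

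The highest mean LAG-1 fold, at II 856869 to 857198, came from a single value. LAG-1 a had a fold of 167.2 there, on 83.6 tags, scaled to the input, over 0.5 input tags, while LAG-1 b had 8.19 and Flag b 4.41. This region was singled out after its values were seen.

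Just inside the selection, the members of 2 LAG-1 and 1 control library with the lowest mean LAG-1 percentile had LAG-1 folds of 4.06 to 4.95, near the 4-fold minimum. I 12995384 to 12995959 had 4.67 in LAG-1 b, 4.06 in LAG-1 e and 4.16 in Myc c. III 1218186 to 1218524 had 4.69 and 4.09 in LAG-1 b and e and 6.52 in Myc a, and V 15479831 to 15480220 had 4.17 and 4.95 and 5.20 in Myc a. Just outside it, the closest control peak missed the LAG-1 region by 3 bp at I 14922621 to 14922967, with LAG-1 folds of 6.81 in b and 5.89 in e. It missed by 11 bp at III 3540441 to 3540795 and by 14 bp at II 2174891 to 2175375. Of the 802 regions without a control peak, 26 had one within 100 bp, 49 within 200 bp and 217 within 1000 bp, so the border of the set turns on a few bases for some regions.

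Members were also grouped by the kind of control, as titled. The 24 members with a Flag peak had a median mean LAG-1 fold of 11.7 and a median LAG-1 percentile of 88.6, and 16 of them (66.7%) had peaks in all 4 LAG-1 libraries. The 107 members with Myc a as the only control had a median fold of 7.74, and 28 of them (26.2%) had all 4 LAG-1 libraries. For the 76 with Myc c only, the values were 7.67 and 18 (23.7%). The 23 members with Myc a and Myc c lay between, at 9.78 and 10 (43.5%). The 4 members with Myc d and no Flag peak had a median fold of 9.13 and a median LAG-1 percentile of 79.5. That percentile was 61.2 with Myc a only and 60.3 with Myc c only. Fold ranges overlapped: mean folds ran from 5.67 to 87.7 with a Flag peak, from 4.39 to 21.6 with Myc a only and from 4.37 to 25.7 with Myc c only. Flag b had 15 of these Flag peaks, Flag a 8 and Flag c 1, so the Flag members mostly reflect 2 libraries. The Flag and Myc d lists are short and those of Myc a and Myc c long. The kind of control and the length of its list therefore cannot be told apart here.

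The Notch libraries were compared next, to ask whether members had Notch peaks more or less often than recurrent LAG-1 regions without a control peak. Among all 1036 recurrent LAG-1 regions, 17.3% had a peak in 1 or more Notch libraries and 2.22% in at least 2. Of the members, 57 (24.4%) had 1 or more Notch peaks and 12 (5.13%) in at least 2. Of regions without a control peak, 122 (15.2%) and 11 (1.37%) had one. Both shares of the members stood above those of all recurrent regions.

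In each Notch library the share was higher for members. Notch a had a peak in 8.55% of members and 2.24% of regions without a control peak. For Notch b the shares were 3.85% and 1.37%, for Notch c 17.9% and 12.3%, and for Notch d 4.27% and 1.5%. The mean difference was 4.29 ± 1.95 percentage points (SD, n = 4 libraries), positive in 4 of 4. An exact two-sided sign permutation over the 4 libraries gave p = 0.13 (rounded), the smallest value that 4 libraries allow, so the design cannot pass 0.05 (adjusted p = 0.25 over 4 Notch comparisons by the Benjamini-Hochberg method). The 4 libraries were measured against the same regions and are not independent in that respect. Notch c, with 8261 peaks, was the only Notch library with a peak at 33 of the 57 members. Leaving Notch c out, 24 members (10.3%) and 32 regions without a control peak (3.99%) had a Notch peak.

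**Figure D5:**
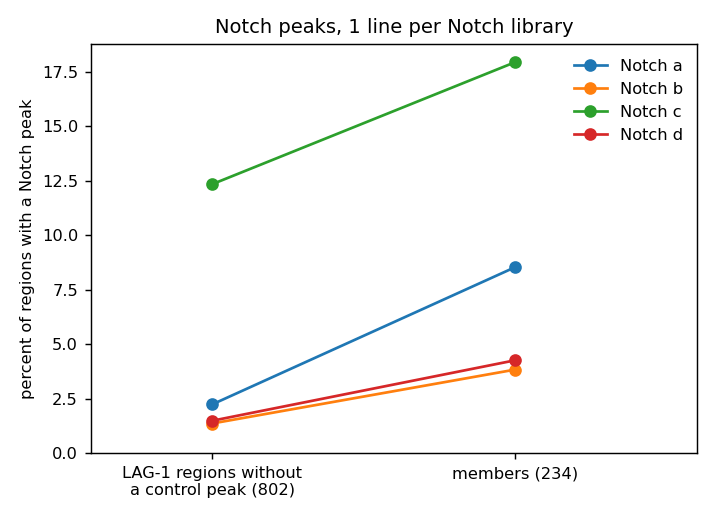
Percent of regions with a peak in each of the 4 Notch libraries (1 line per library) for the 802 recurrent autosomal LAG-1 regions without a control peak and for the 234 members. Each line is higher at the members, with Notch c from 12.3% to 17.9% and Notch a from 2.24% to 8.55%.

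Members lay in more LAG-1 libraries, so the comparison was repeated within each number of LAG-1 libraries. LAG-1 fold was not matched by this. At 4 LAG-1 libraries the mean LAG-1 fold had a median of 10.7 at members and 9.04 at regions without a control peak. The medians were 8.27 and 7.33 at 3 LAG-1 libraries, and 7.055 and 6.135 at 2. At 4 LAG-1 libraries the Notch share differed by 8.10 ± 4.62 points (SD, n = 4), positive in 4 of 4, with an exact permutation p of 0.13 (adjusted p = 0.25). There, Notch a had peaks in 14 of 73 members and 5 of 111 regions without a control peak, Notch b in 8 and 6, Notch c in 15 and 18, and Notch d in 9 and 5. At 3 LAG-1 libraries the difference was 2.54 ± 3.09 points (SD, n = 4), positive in 3 of 4 (exact permutation p = 0.25, adjusted p = 0.333). At 2 LAG-1 libraries it was 1.09 ± 2.28 points (SD, n = 4), positive in 2 of 4 (exact permutation p = 0.625, adjusted p = 0.625). The differences at 2 and 3 LAG-1 libraries were thus no larger than the spread between Notch libraries, and whether the difference depends on the number of LAG-1 libraries was not tested.

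Of the members with a Flag peak, 12 of 24 (50%) had a Notch peak, as had 2 of the 4 with Myc d and no Flag peak. The share was 22 of 107 (20.6%) with Myc a only, 16 of 76 (21.1%) with Myc c only and 5 of 23 (21.7%) with Myc a and Myc c. Members with at least 2 control libraries had a Notch peak in 15 of 41 cases (36.6%), and those with 1 in 42 of 193 (21.8%). The former made up 8.41%, 16.7% and 31.5% of members at 2, 3 and 4 LAG-1 libraries. A Notch peak was present in 16.8%, 25.9% and 34.2% of the same members. The part of the number of LAG-1 libraries in this contrast was not tested. Flag members also had the higher LAG-1 folds given above, and the part of that in the Notch shares was not tested. Where a Notch peak was present, its fold did not stand apart in one direction: the medians at members and at regions without a control peak were 5.52 and 4.58 in Notch a, 4.90 and 4.64 in Notch b, 5.26 and 5.37 in Notch c, and 5.02 and 5.24 in Notch d. Median normalised tags were higher at members in each, at 110.4 and 87.2 in Notch a and 187.1 and 150.2 in Notch b. They were 139.6 and 128.7 in Notch c, and 201 and 165.9 in Notch d. Input tags were also higher in Notch b (56 and 48.3) and Notch d (29.8 and 24.6). Members held only 9 peaks of Notch b and 10 of Notch d.

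Members are regions, not replicates, and the merged extent is longer for members. With Notch peaks counted only where their centre lay within 100 bp of the LAG-1 centre, the mean difference was 3.10 points and again positive in 4 of 4 libraries. With the regions merged from LAG-1 and control peaks alone, it was 4.10 points, also positive in 4 of 4. The difference was 18.0 points with Flag peaks as the only control peaks and 12.1 points with the 500 strongest peaks of each list. The lists of Flag a, b and c, Myc d, Notch b and Notch d hold fewer than 500 peaks and stayed whole. Without Myc a, Myc c and Notch c the difference was 15.7 points, positive in 3 of 3 Notch libraries.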

How the data were processed

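Peak lists of 14 immunoprecipitation libraries were analysed; their 14 inputs served the authors as background for calling. The submitters' processing notes name CASAVA 1.8, Bowtie, HOMER and build ce10, with no version for the last tools. Per the file headers, HOMER called each library against its own input, at 4-fold over input and over the surrounding 10 kb (10000 bp), with a clonal limit of 2, at a false discovery rate of 0.01 for LAG-1 and Notch and 0.001 for controls. Normalised tags are a signal that the authors scaled to a library of 10 M tags. Total tags are counts in the deposited lists, except that those of LAG-1 a and b were scaled by the authors, which makes them a signal. Input tags were scaled in the other libraries and are a signal there. The deposited fold over input, local fold and clonal fold are ratios from the authors' caller, as are the strand-focus fraction and the peak score, per the file headers; the score was not used for any result.

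Peaks were merged and counted with Python 3.11.15, pandas 2.3.3 and scipy 1.17.1; the code was tested on simulated lists. No peak was filtered. The percentile of a fold is its rank within its own list, and intervals are exact 95% binomial. The 1 test is an exact sign permutation over Notch libraries. Groups and replicate letters came from sample titles. The members, lists and comparisons were chosen with earlier results of these data known.

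Named regions were the 12 members with peaks in most libraries and the 10 with the highest mean LAG-1 percentile. Members with 3 or more control libraries and the 10 with the highest control percentile were also named. The 10 Flag members with most Flag libraries were planned, but every Flag member had only 1 Flag library. The 10 were therefore taken by the number of control libraries and then by mean LAG-1 percentile. The last were 3 regions just inside and 3 just outside the selection. Runs of 3 or more members were planned and 0 were found. The text gives some of the named regions. Alternatives were a stricter fold, a longer overlap, other numbers of libraries, other controls, shorter lists and leaving out libraries. Motifs and genes were planned and not run, for want of a genome of the lists' build.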

Additional observations from a re-analysis of the deposited data

Results flagged for a closer look

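At IV 4749874 to 4750295 the LAG-1 c fold over input of 8.80 lay far below the folds of 23.3, 23.4 and 24.5 in LAG-1 a, b and e. The gap to the nearest of the others was 0.920 of the whole range of the 4 libraries. LAG-1 c was the lowest library at 52 of the 73 members with peaks in all 4 LAG-1 libraries. Of 29 groups of named values examined in this way 1 stood out, and the criterion by its nominal rate picks about 1 in 20 groups by chance.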

How the results depend on the processing

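The higher Notch share at members kept its direction under all 23 alternatives run, from 3.10 to 18.0 points, with each p at or above the smallest that 4 libraries allow (0.13, rounded). The number of members was 36 at a fold of at least 6, 127 with 3 LAG-1 libraries required, 31 from the 500 strongest peaks of each list, 24 with Flag controls only and 28 without the 3 libraries of over 5000 peaks; it was 226 with Myc controls only, 232 merged without Notch lists and 287 with the X chromosome. The percent with a control peak was then 6.90, 27.7, 7.33, 2.32 and 2.70, and 19.4 with an overlap of 100 bp. The LAG-1 percentile difference, 15.3 points on average, was 7.60, 12.3, 10.7, 29.6 and 29.998 in the same order. The strand-focus difference, -0.00975, was -0.0271 at a fold of at least 6 and reversed to 0.0293 with the 500 strongest peaks, 0.0474 with Flag controls, 0.0463 without the 3 libraries and 0.00163 without Myc a; the cause was not tested. Leaving out 1 library gave 127 to 233 members (144 without LAG-1 b, 137 without LAG-1 e, 127 without Myc a), 12.3% to 26.4% with a control peak, percentile differences of 12.1 to 17.7, strand-focus differences of -0.0142 to 0.00163 and Notch differences of 3.62 to 6.56 points. The percentile difference, leaving out the 3 libraries, the limit on Notch peak centres and the Notch comparison on regions merged without Notch lists were chosen after seeing the data. No paired analysis was possible because no test compares groups of libraries that share letters; the 1 test already takes a difference within each Notch library. Depth limits the Myc c peaks in members, which rest on a median of 36 tags.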
